A study of Oryza sativa with 16 samples.

Results

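The drought response of the panicle was examined in DTY-IL, an introgression line that carries fragments of the drought-tolerant donor N22 in the background of the indica variety Swarna. It was measured in 8 of the 16 panicle RNA-seq libraries, 4 from well-watered DTY-IL plants (control) and 4 from DTY-IL plants under reproductive-stage drought stress (RDS). The members were chosen by their count columns alone, as the columns of the introgression line, and all 33698 of 55801 loci with at least 10 counts in total over 15 libraries were tested. RDS began at the R2 stage and had a milder phase, with 9 days at a soil moisture of 75% of field capacity, and a harsher one of 3 days at 50%, while control pots stayed well watered. Panicles of both treatments were taken at the R3 stage on day 12 from greenhouse pots. Swarna, the recurrent parent without the N22 fragments, went through the same control and RDS treatments and was used only for comparison. DTY-IL is a single F7 line, so a difference from Swarna cannot be told apart from the particular set of fragments it carries.

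The rice panicle around the R3 stage is emerging from the sheath and holds anthers in which pollen develops, ovaries, floral bracts and branches, so a whole-panicle library is a mixture of many tissues. Water deficit at this stage is known to reduce fertility and grain number, and drought responses run largely through abscisic acid, which acts through kinases and transcription factors on protective proteins, transport and cell wall enzymes. The loci are listed without gene names. Roles were therefore given only for the 8 loci whose identifier and role the text of the study pairs. Its longer lists of annotated loci were not used here, and gene groups such as dehydrins, aquaporins or pollen genes were not counted. The same holds for the defining markers of panicle tissues, so the tissue label was not checked. An AP2 domain-containing protein that controls floral organ identity (LOC_Os07g22770) was detected in all 8 libraries. Without another tissue beside it, its detection cannot check the label.

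Total counts ranged from 25360142 to 30031096 per DTY-IL library. Loci with at least 10 counts numbered 25406 ± 616 in control and 24997 ± 131 under drought (SD, n = 4 each), a difference that did not pass an exact permutation test (2-sided p = 0.229, where 4 against 4 libraries cannot go below 0.0286). The first principal component of the 500 most variable loci carried 64.0% of the variance and separated every drought library from every control library. The second carried 24.2% and set DTY-IL control replicate 3 (45.7) apart from the other control libraries (-26.6 to -16.9) and from the drought libraries (-0.71 to 9.13). In Euclidean distance over log2 CPM (counts scaled to a common library size), DTY-IL control replicate 3 lay 133.5 to 153.8 from the other control libraries, which lay 65.7 to 75.1 from each other. The counts of DEGs and the values of the named loci are given with and without it.

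**Figure D1:**
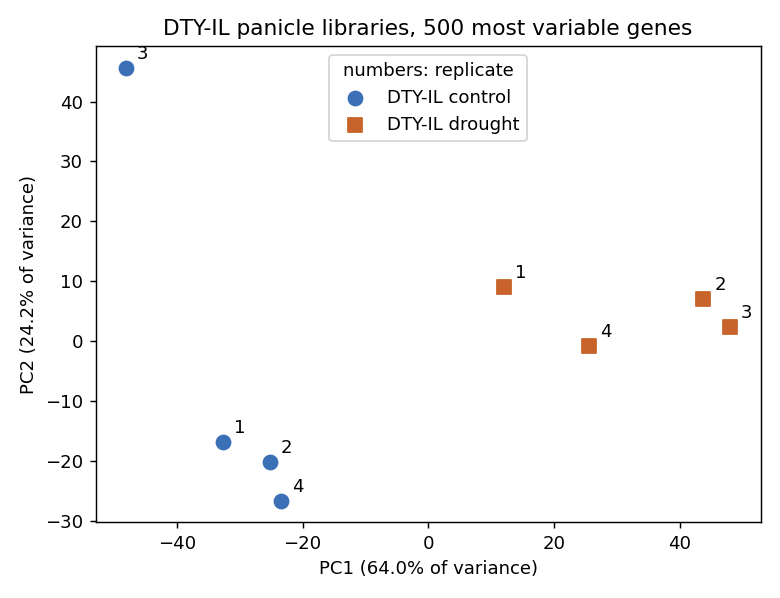
Principal components of log2(CPM + 1) for the 8 DTY-IL libraries over the 500 most variable loci, with PC1 (64.0% of the variance) on the x axis and PC2 (24.2%) on the y axis; each point is 1 library, with its replicate number. Drought libraries lie to the right of all control libraries, and control replicate 3 stands alone at 45.7 on PC2.

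Under RDS, 2515 loci were upregulated and 4145 were downregulated in DTY-IL panicles at a Benjamini-Hochberg adjusted p ≤ 0.05 in edgeR's quasi-likelihood test and a change of 1 or more on the log2 scale in either direction. These were 7.46% and 12.3% of the loci tested, 19.8% in both directions together. Among the 22756 loci with a mean of at least 1 CPM in DTY-IL they were 8.03% and 13.7% (21.7% together). In bulk panicles, fewer cells of a type and less RNA per cell cannot be told apart. The median log2 fold change was 1.91 among upregulated DEGs and -1.94 among downregulated DEGs, against -0.03 over all loci tested. A change of 2 or more on the log2 scale was reached by 1181 upregulated and 1958 downregulated DEGs, and one of 4 or more by 279 and 283. Without DTY-IL control replicate 3, 2247 loci were upregulated and 3870 downregulated, or 6.73% and 11.6% of 33395 tested (18.3% together). When Swarna control replicate 3, which the study also left out, was included in the shared fit, the counts were 1520 upregulated and 1358 downregulated. A stricter test, of whether the change exceeds 1 on the log2 scale (glmTreat), called 720 upregulated and 790 downregulated loci.

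Groups that do not overlap were common among the DEGs. The DEGs were called on these same libraries, so this describes them and is no test of the response. In 2011 of the 2515 upregulated DEGs, every drought library was above every control library, as in 15.2% of all loci tested. In 3054 of the 4145 downregulated DEGs, every drought library was below every control library, as in 14.1% of all loci tested. Calls were made at all levels of abundance. Of the 8804 loci with a mean of 1 to 10 CPM over the DTY-IL libraries, 943 were upregulated and 1593 downregulated. Of the 1893 loci with 100 CPM or more, 152 were upregulated and 255 downregulated, and of the 4449 loci under 0.1 CPM, 97 and 161. In the lowest of these classes few counts stood behind each value, and only large differences were detectable at this depth.

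DEGs made up a changing share of the library. Because these loci were chosen by the same contrast, the shares describe the size of the shift and are no test of it. Upregulated DEGs took 4.24%, 4.23%, 3.63% and 4.07% of all counts in control replicates 1 to 4. They took 10.6%, 15.5%, 16.8% and 13.6% in drought replicates 1 to 4. Drought replicate 1 held the smallest share of the drought libraries and still more than any control library. Downregulated DEGs took 20.8%, 19.1%, 21.8% and 20.7% of counts in control replicates 1 to 4. They took 9.26%, 4.25%, 4.98% and 7.15% in drought replicates 1 to 4. In both sets drought replicate 1 lay nearest to the control libraries, then replicate 4, and replicates 2 and 3 lay farthest from them.

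**Figure D2:**
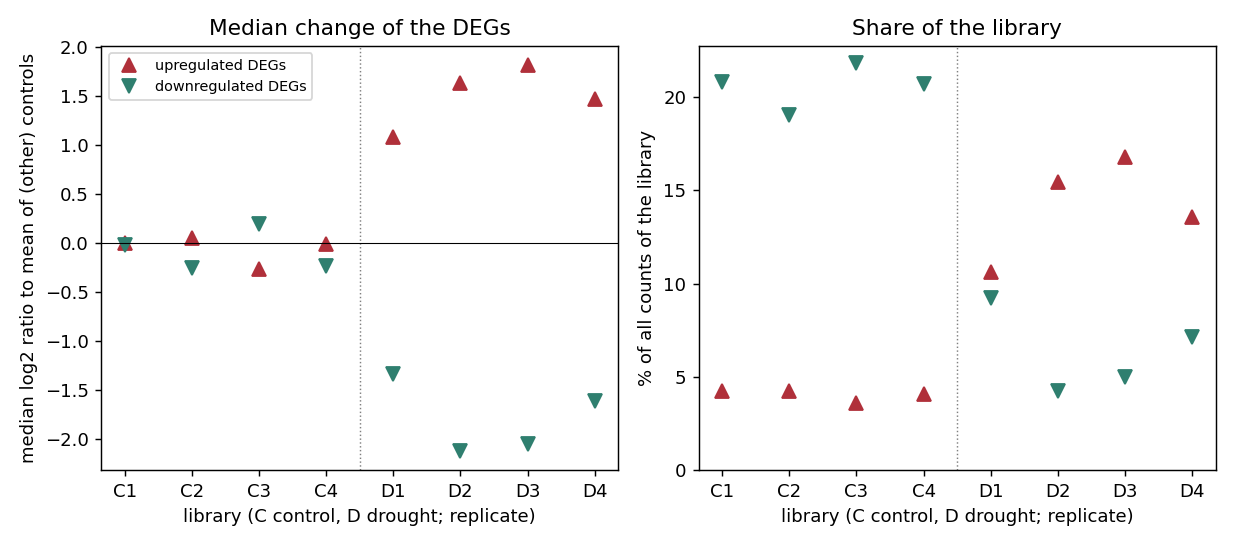
Left, the median log2 ratio of each DTY-IL library (x axis, C control and D drought) to the mean of the control libraries, itself left out, over the 2515 upregulated and 4145 downregulated DEGs; right, the percentage of all counts of the library in those DEGs. Drought replicate 1 shows the smallest shift (1.09 and -1.33) and replicates 2 and 3 the largest.

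Drought libraries differed in how far they moved. Over the upregulated DEGs, the median log2 ratio (CPM + 0.1) to the control mean was 1.09, 1.63, 1.82 and 1.48 in drought replicates 1 to 4. Over the downregulated DEGs it was -1.33, -2.12, -2.04 and -1.61. Among upregulated DEGs the highest drought library was replicate 2 in 37.5% and replicate 3 in 34.8%, and replicate 1 in only 6.12%, whereas replicate 1 was the highest in 28.7% of all loci with a mean of at least 1 CPM. Among downregulated DEGs replicate 1 was the highest drought library in 55.5%. Drought replicates 2 and 3 were each other's nearest library, as were replicates 1 and 4. Without drought replicate 3 the counts were the lowest of any fit that left out 1 library, 1960 upregulated and 2886 downregulated.

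DTY-IL control replicate 3 departed from the other control libraries in both directions. It was the highest control library in 45.9% of the downregulated DEGs and 17.3% of the upregulated DEGs. Among all loci with a mean of at least 1 CPM, it was the highest in 35.5%. It was over 4 times the mean of the other control libraries in 283 downregulated DEGs (6.83%) and 38 upregulated DEGs (1.51%). Among all loci with a mean of at least 1 CPM, this held in 1.72%. It was under 1/4 of their mean in 367 downregulated DEGs (8.85%) and 384 upregulated DEGs (15.3%), and in 4.85% of all loci with that mean. Of the 283 in which it was high, 116 were still downregulated when this library was left out. Of all 4145 downregulated DEGs, 3230 (77.9%) were still downregulated without it, and of the 2515 upregulated DEGs, 2077 (82.6%) were still upregulated. A further 170 loci were upregulated and 640 downregulated only without it. Leaving out another control library gave counts of a like size, with 2521, 2364 and 2292 upregulated and 3286, 3947 and 3931 downregulated DEGs without control replicates 1, 2 and 4.

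**Figure D3:**
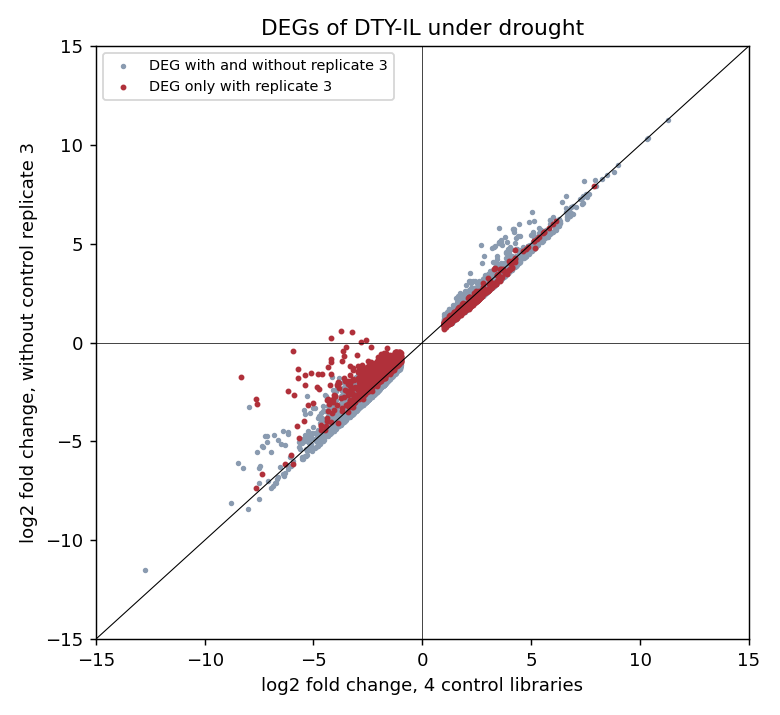
Each point is a DEG of DTY-IL under drought, with its log2 fold change with all 4 control libraries on the x axis and without control replicate 3 on the y axis; the line marks equal values and red marks loci that are DEGs only with replicate 3. Red points above the line at the lower left are loci whose fall became smaller without that library, among the 915 downregulated loci that were not called without it.

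Some DEGs had at most 3 counts, taken as the limit of detection, in every library of 1 treatment. Detection above that limit in the other treatment was not required. Among upregulated DEGs, 311 (12.4%) had at most 3 counts in every control library, and among downregulated DEGs 453 (10.9%) had at most 3 counts in every drought library. The share of all loci tested that lay at this limit is not given here. Against that limit, the median bounds were only 2.24-fold for the 311 and 2.31-fold for the 453. Under drought, 31 of the 311 were at least 10-fold higher and 31 of the 453 at least 10-fold lower. The largest bounds were 115-fold and 284-fold. With control replicate 3 left out of the means these were 31 and 15 loci, with the largest bounds at 114-fold and 155-fold. In 50 of the 453, control replicates 1, 2 and 4 also had at most 3 counts. The mean of all 4 control libraries was a median of 0.725 times the limit in these 50, so most were not detectable above it, and 23 of them were still called without replicate 3. Without control replicate 3, 212 of the 311 and 335 of the 453 were still called. These limits cover counting error only.

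The 2 largest rises and 2 largest falls among DEGs with groups that do not overlap and a mean of at least 50 normalized counts are shown by identifier, with no role, since the sources used here give none. LOC_Os01g46600 had 0 counts in all 4 control libraries and 4.39, 2.10, 15.2 and 23.1 CPM in drought replicates 1 to 4. It was at least 106-fold higher under drought against the limit of 3 counts in each control library (edgeR's adjusted p = 0.000637), and at least 105-fold higher without control replicate 3 (adjusted p = 0.00147). LOC_Os06g51440 also had 0 counts in all control libraries, and 1.84, 1.76, 6.80 and 13.2 CPM in drought replicates 1 to 4. Both loci were highest in drought replicate 4, which was the highest drought library in 21.5% of upregulated DEGs, and lowest in replicate 2. The second was at least 56.1-fold higher under drought (edgeR's adjusted p = 0.000393), and at least 55.5-fold higher without control replicate 3 (adjusted p = 0.00102). In Swarna both also rose, to means of 62.3 ± 25.3 and 27.6 ± 14.0 CPM under drought (SD, n = 4).

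Under the same limits on overlap and level, the 2 loci that fell the most were both highest in DTY-IL control replicate 3. LOC_Os02g40260 had 25.5, 0.49, 107.8 and 0.93 CPM in control replicates 1 to 4 and 0.18, 0.06, 0.15 and 0.04 CPM in drought replicates 1 to 4. The groups did not overlap, but the control libraries spanned 0.49 to 107.8 CPM, with replicates 1 and 3 high. Its log2 fold change was -8.23 ± 1.59 (SE) with an adjusted p of 0.00191 by edgeR, and -6.32 without control replicate 3 (adjusted p = 0.00316). LOC_Os04g48400 had 0.40, 0.23, 29.7 and 0.24 CPM in control replicates 1 to 4, and 0, 0.09, 0 and 0 CPM under drought. Its control level lay almost wholly in replicate 3. It was at least 70.8-fold lower under drought (edgeR's adjusted p = 0.00597), and at least 2.68-fold lower without control replicate 3 (adjusted p = 0.0269). In Swarna the 2 log2 fold changes were -3.76 and -2.39, and neither passed the test (adjusted p = 0.0839 and 0.427 by edgeR). The Swarna control means of these loci were 1.2 and 0.17 CPM.

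Of the 8 loci with a role, 3 passed the test under drought in DTY-IL, 2 upwards and 1 downwards, beside 7.46% and 12.3% of all loci. The study named the 3 peroxidases from a co-expression module of the flag leaf, and the other loci with results that include these libraries in view, so the count is a description. The transcription factor among them rose. LOC_Os01g66120, a no apical meristem (NAC) protein in the qDTY1.1 region, belongs to a plant family of transcription factors with members active in stress responses. It had 44.2, 54.9, 20.6 and 79.4 CPM in control replicates 1 to 4 and 93.9, 137.2, 340.5 and 160.1 CPM in drought replicates 1 to 4. Every drought library was above every control library. The log2 fold change was 1.88 ± 0.42 (SE) with an adjusted p of 0.00481 by edgeR, and 1.62 without control replicate 3 (adjusted p = 0.00892). The call was lost when all 16 libraries were fitted (adjusted p = 0.0594) and with glmTreat (adjusted p = 0.0945). In Swarna it rose by 2.45 ± 0.48 on the log2 scale (SE, adjusted p = 0.00106 by edgeR), and the difference between the genotypes was -0.58 ± 0.61 (SE, interaction adjusted p = 0.743).

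**Figure D4:**
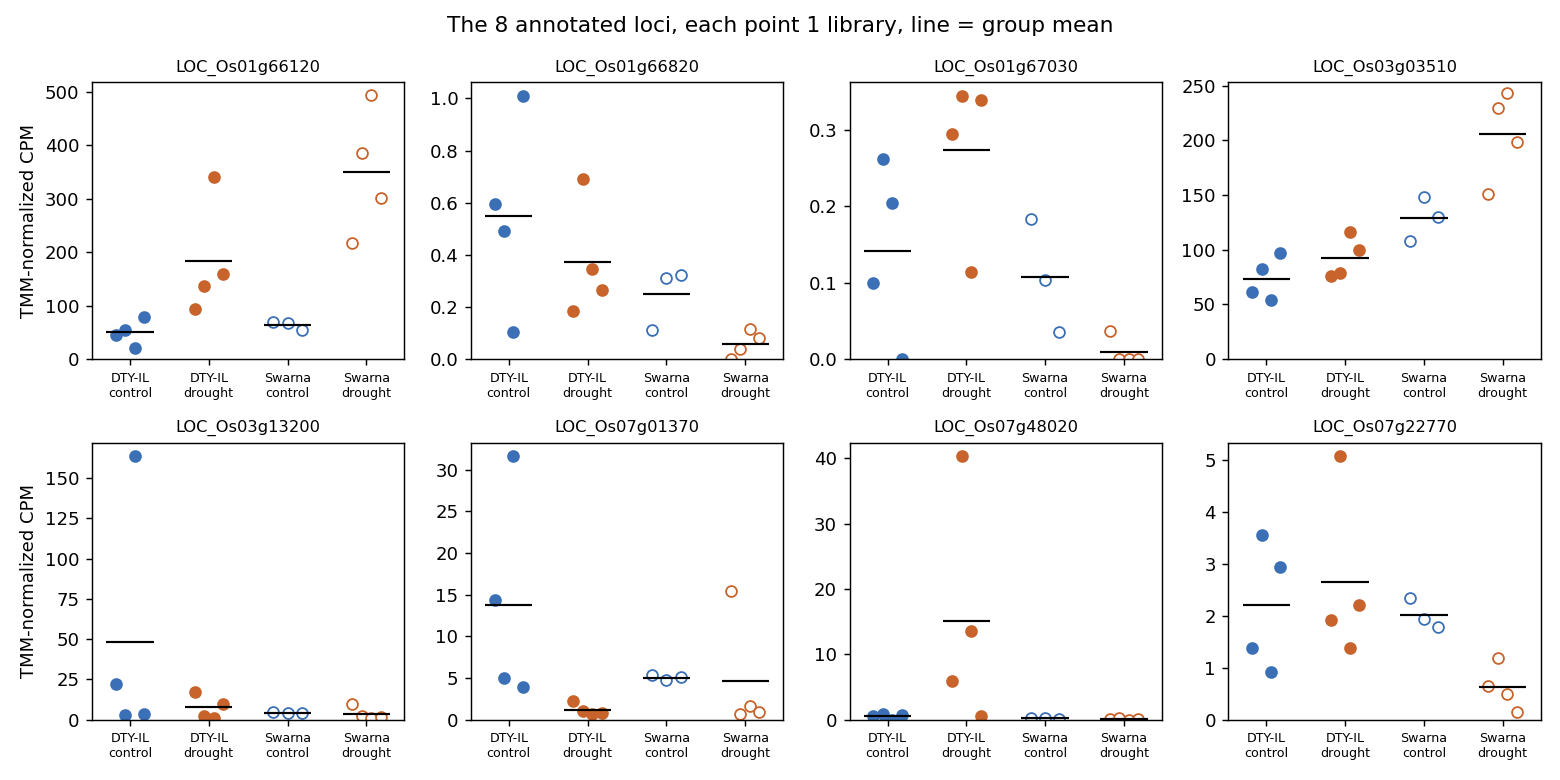
CPM after TMM normalization (y axis, from 0, with its own scale in each panel) of the 8 loci with a role in the 15 libraries fitted; each point is 1 library, filled for DTY-IL and open for Swarna, blue for control and orange for drought, with lines at group means. LOC_Os01g66120 rose in both genotypes, LOC_Os07g48020 was high in 3 DTY-IL drought libraries only, and LOC_Os03g13200 was high in control replicate 3 of DTY-IL.

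Class III peroxidases are secreted enzymes that use hydrogen peroxide and can either stiffen or loosen the cell wall, and the 3 annotated members did not move together. LOC_Os07g48020 had 0.59, 0.85, 0.03 and 0.73 CPM in control replicates 1 to 4 and 5.97, 40.3, 13.5 and 0.56 CPM in drought replicates 1 to 4. It was high in drought replicates 1, 2 and 3, and drought replicate 4 lay within the control range, so the groups overlap. The log2 fold change was 4.77 ± 1.02 (SE) with an adjusted p of 0.00356 by edgeR. It was 4.37 without control replicate 3 (adjusted p = 0.00716) and 3.54 without drought replicate 2, the lowest of the fits that left out 1 library. In Swarna it stayed at or under 0.33 CPM in all 7 libraries. The difference between the genotypes was 6.0 ± 1.72 on the log2 scale (SE, interaction adjusted p = 0.21 over all loci), so it did not pass the test.

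The other peroxidases had lower values under drought. LOC_Os07g01370 had 14.4, 4.97, 31.6 and 3.96 CPM in control replicates 1 to 4 and 2.29, 1.04, 0.73 and 0.79 CPM in drought replicates 1 to 4. Every drought library was below every control library, and control replicate 3 was the highest. It fell by 3.5 ± 0.96 on the log2 scale (SE, adjusted p = 0.0133 by edgeR), and by 2.68 without control replicate 3 (adjusted p = 0.0382). The call was lost with glmTreat (adjusted p = 0.0778). In Swarna it had 5.34, 4.75 and 5.10 CPM in control replicates 1, 2 and 4. Swarna drought replicates 1 to 4 had 15.4, 0.74, 1.68 and 0.87 CPM. Swarna drought replicate 1 lay above every Swarna control library, and the other Swarna drought libraries lay below them, as in DTY-IL. With that library in the mean, the Swarna log2 fold change was -0.11 ± 0.93 (SE, adjusted p = 0.936 by edgeR). The difference between the genotypes was -3.39 ± 1.335 (SE, interaction adjusted p = 0.333 over all loci). LOC_Os03g13200 had 22.4, 3.04, 163.5 and 3.60 CPM in control and 17.5, 2.64, 1.15 and 9.79 CPM under drought, each in the order of replicates 1 to 4. Only control replicate 3 lay far outside the drought range. Its log2 fold change was -2.63 ± 1.18 (SE, adjusted p = 0.0983 by edgeR), which did not pass, while DESeq2 gave an adjusted p of 0.0487. Without control replicate 3 it was -0.32 (adjusted p = 0.826).

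The signalling loci did not pass the test in DTY-IL. LOC_Os03g03510, in the qDTY3.2 region, encodes a calcium/calmodulin-dependent protein kinase with the domain of SnRK3 kinases, which in plants are regulated by calcium sensors. It had 61.1, 82.3, 53.9 and 96.8 CPM in control replicates 1 to 4 and 76.1, 78.8, 115.9 and 99.4 CPM in drought replicates 1 to 4. The groups overlapped, with drought replicate 3 the highest and control replicate 3 the lowest. The log2 fold change was 0.33 ± 0.21 (SE, adjusted p = 0.244 by edgeR), and 0.21 without control replicate 3 (adjusted p = 0.485). In Swarna it was 0.68 ± 0.23 (SE, adjusted p = 0.0292), below the fold threshold, and the difference between the genotypes was -0.34 ± 0.31 (SE, interaction adjusted p = 0.694).

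LOC_Os01g66820, annotated as an inactive receptor kinase precursor in the qDTY1.1 region, was near the limit of detection, with 3 to 25 counts per control library and 5 to 22 per drought library. Its levels of 0.10 to 1.01 CPM in control and 0.18 to 0.69 CPM under drought overlapped, with a log2 fold change of -0.54 ± 0.64 (SE, adjusted p = 0.545 by edgeR) and of -0.89 without control replicate 3 (adjusted p = 0.26). LOC_Os01g67030, an auxin-responsive protein in qDTY1.1 with DOMON and cytochrome b561 domains, which are found in membrane electron carriers, had still fewer counts. It had 3, 8, 6 and 0 counts in control replicates 1 to 4 and 8, 11, 3 and 9 counts in drought replicates 1 to 4. At these counts only a large difference could have been detected. The log2 fold change was 0.91 ± 0.73 in DTY-IL (SE, adjusted p = 0.353 by edgeR), and 1.12 without control replicate 3 (adjusted p = 0.318). In Swarna it was -3.01 ± 1.16 (SE, adjusted p = 0.0479), where 3 of 4 drought libraries had no count, and the difference between the genotypes was 3.92 ± 1.37 (SE, interaction adjusted p = 0.28 over all loci).

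The floral organ identity locus LOC_Os07g22770 had 1.39, 3.57, 0.92 and 2.95 CPM in control replicates 1 to 4 and 1.92, 5.09, 1.38 and 2.22 CPM in drought replicates 1 to 4 of DTY-IL. The groups overlapped, and drought replicate 2 was the highest library. The log2 fold change was 0.27 ± 0.53 (SE, adjusted p = 0.727 by edgeR), and it was 0.01 without control replicate 3 (adjusted p = 0.991) and -0.30 without drought replicate 2 (adjusted p = 0.708). In Swarna it fell by 1.68 ± 0.60 on the log2 scale (SE, adjusted p = 0.0333), with a difference between the genotypes of 1.95 ± 0.80 (SE, interaction adjusted p = 0.345 over all loci).

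Drought effects were set beside those in Swarna to see where DTY-IL differed. The upregulated DEGs of DTY-IL had a median log2 fold change of 1.91 in DTY-IL and 1.94 in Swarna, and 1881 of the 2515 were also upregulated DEGs in Swarna, where 11.9% of all loci were. The downregulated DEGs had medians of -1.94 in DTY-IL and -2.24 in Swarna, and 3315 of the 4145 were also downregulated in Swarna, where 17.6% of all loci were (29.5% in both directions). DEGs called in the opposite direction in Swarna numbered 4 among those upregulated and 7 among those downregulated. These loci were picked on the DTY-IL values, which makes their DTY-IL medians larger relative to those of Swarna. The interaction of genotype and drought was called for 19 of the 33698 loci (0.0564%) by edgeR's quasi-likelihood test, and for 1 of the upregulated and 6 of the downregulated DEGs of DTY-IL. At an unadjusted p under 0.05 it numbered 4149 loci (12.3%), among them 479 upregulated DEGs, of which 125 had the larger rise in DTY-IL, and 660 downregulated DEGs, of which 197 had the larger fall in DTY-IL. The count of interactions was not stable. It was 525 with DESeq2, 3 with glmTreat and 0 with all 16 libraries. It was 4, 5, 5, 3 and 10 without DTY-IL control replicates 1, 2 and 4 and drought replicates 1 and 2, in that order. It was 2, 2, 3, 10 and 2 without Swarna control replicates 1, 2 and 4 and drought replicates 2 and 3. It was 26, 20 and 26 without DTY-IL control replicate 3 and drought replicates 3 and 4, in that order. Without Swarna drought replicates 1 and 4 it was 19 and 15. With RLE factors, library totals, filterByExpr and no filter it was 17, 17, 27 and 20.

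Downregulated DEGs were also divided by whether they were called without DTY-IL control replicate 3, and both sets were set beside Swarna. Of the 915 that were not called without that library, 555 (60.7%) were downregulated DEGs in Swarna, and of the 3230 called with and without it, 2760 (85.4%) were. Their median log2 fold changes in Swarna were -1.59 and -2.37. The 915 also had the smaller median in DTY-IL, -1.66 against -2.0, and the difference between these sets was not tested.

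DEGs were found on all 12 chromosomes, read from the locus identifiers. The upregulated share was the highest on chromosome 1, with 420 of 4488 loci tested (9.36%), and the lowest on chromosome 2 with 6.09%. Chromosome 1 carries the largest N22 fragment of DTY-IL and had the highest upregulated share in Swarna as well, at 13.6%. Without DTY-IL control replicate 3 its share in DTY-IL was 8.29%, with 5.8% to 7.36% on the others. The downregulated share lay between 11.1% on chromosome 8 and 13.1% on chromosomes 3 and 5. On chromosome 3, which carries qDTY3.2, 6.36% of loci were upregulated. Whether the shares of the chromosomes differ was not tested.

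**Figure D5:**
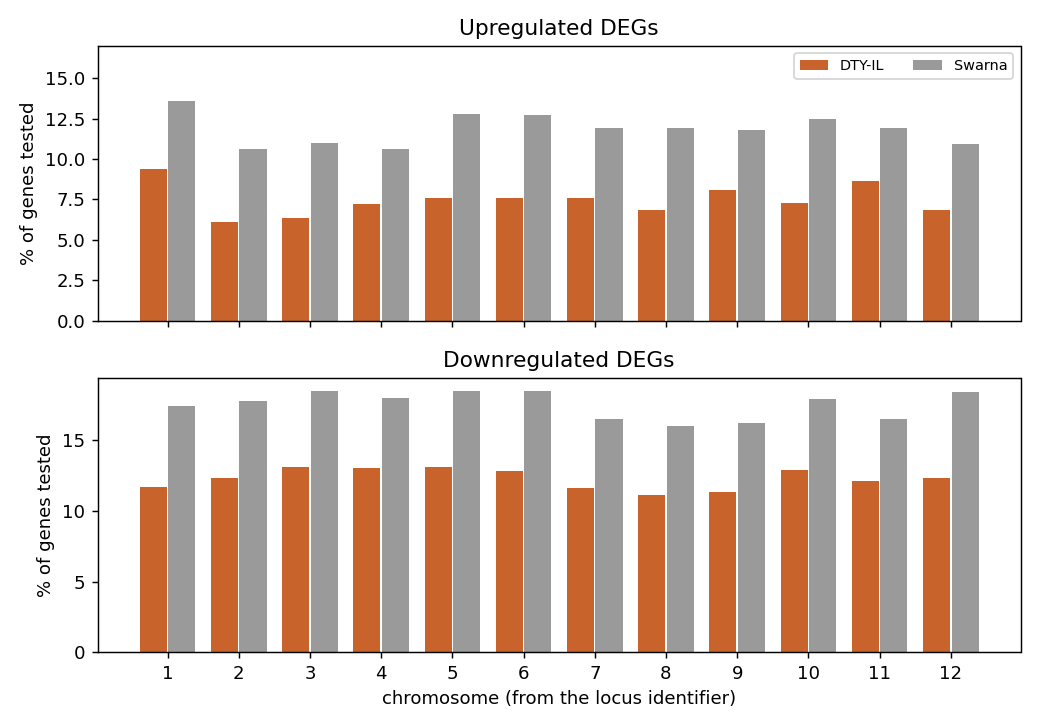
Percentage of the loci tested on each chromosome (x axis) that were upregulated (top) or downregulated (bottom) under drought, in DTY-IL (orange) and Swarna (grey), with bars from 0. Chromosome 1 has the highest upregulated share in both genotypes (9.36% and 13.6%), and downregulated shares in DTY-IL lie between 11.1% and 13.1%.

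Neighbours of DEGs were called in the same direction more often than loci at large, with only a small excess among downregulated DEGs. The next tested locus on the chromosome was also upregulated for 15.9% of upregulated DEGs, against 7.46% of all loci, and also downregulated for 15.6% of downregulated DEGs, against 12.3%. Without DTY-IL control replicate 3 these were 13.8% against 6.67%, and 15.5% against 11.5%. The longest upregulated run held 9 tested loci in a row on chromosome 7, with log2 fold changes of 1.09 to 4.56. Their summed CPM was 14.1, 13.7, 5.78 and 13.1 in control replicates 1 to 4 and 26.1, 104.0, 62.2 and 41.2 in drought replicates 1 to 4. The sum was higher in every drought library than in every control library. The loci of this run and of the next were picked by these same calls, so their sums are no test. Of the 9 loci, 7 were upregulated without control replicate 3 and 7 in Swarna. The longest downregulated run held 6 loci on chromosome 6, all of them also downregulated without control replicate 3 and 5 of them in Swarna. Their summed CPM was 483.6, 601.7, 141.0 and 529.5 in control replicates 1 to 4 and 84.4, 49.5, 46.9 and 135.8 in drought replicates 1 to 4. Control replicate 3 was close to the highest drought library here. Neighbouring loci can be near-identical copies or overlap, between which reads are divided by estimation, so their counts are not independent.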

How the data were processed

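Panicle RNA of 4 control and 4 drought pots per genotype was sequenced as paired reads. The authors trimmed the reads with Trimmomatic, estimated transcript abundance with Salmon 0.7.2 on RGAP 7 transcripts of Nipponbare, and summed it by gene with tximport. The deposited values are these estimated counts, as whole numbers without normalization. Reads from N22 or Swarna alleles that differ from Nipponbare may be lost, which was not tested. The deposited tables of the authors' own comparisons (fold changes and p-values) were not used.

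Since the count columns carry no pot number, replicate numbers are those of the columns. No 2 DTY-IL libraries were closer than a distance of 62.9, and none was treated as a repeat. Swarna control replicate 3 was left out, as the study did. In R 4.3.3 with edgeR 4.0.16, loci with at least 10 counts over 15 libraries were kept, normalized by TMM, fitted with 4 groups and tested by the quasi-likelihood test with Benjamini-Hochberg adjustment. DEGs had an adjusted p ≤ 0.05 and a change of 1 or more on the log2 scale. CPM values use TMM factors. On simulated counts this fit recovered 34% of 2-fold and 84% of 4-fold changes in DTY-IL among 33698 loci, and 3% and 51% as interactions. The changes were placed in 100 loci per fold, all with a mean of at least 50 normalized counts. Recovery meant an adjusted p ≤ 0.05 in the right direction, without the fold threshold. In the data 11120 loci reached that adjusted p for the drought effect in DTY-IL, far more than were changed in the simulation. Benjamini-Hochberg adjustment was therefore stricter in the simulation, and 34% and 84% may understate recovery of that effect in the data.

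The members and lists were chosen with earlier results of these data known. Named loci are those that the text of the study pairs with a role, plus the 2 largest rises and 2 largest falls among DEGs with groups that do not overlap and an average of 50 or more normalized counts. The planned lists of named rice genes and tissue markers were not used, because 0 of 55801 loci matched the reference table of names. The rule's condition of a product description was dropped for the same reason. Alternatives were DESeq2 1.42.0, RLE factors, library totals, filterByExpr, no filter, all 16 libraries, the 8 DTY-IL libraries alone, glmTreat at a log2 change of 1, and each library left out in turn. The study describes the replicates as independent biological replicates.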

Additional observations from a re-analysis of the deposited data

Results flagged for a closer look

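In groups of 4 libraries, the library farthest from the rest was marked where its gap to the nearest other library took up most of the group's range (Dixon's criterion). Chance gives this in about 1 of 20 groups of normally distributed values. This was so in 4 of 32 groups examined. CPM values were not transformed, and some loci were named for their fold change in these same libraries. The count of marked groups is therefore a description and no test of an excess. LOC_Os03g13200, a class III peroxidase, had 163 CPM in DTY-IL control replicate 3, a gap of 0.88 of the range. LOC_Os04g48400 had 29.7 CPM in DTY-IL control replicate 3, a gap of 0.994. The same locus had 0.0942 CPM in DTY-IL drought replicate 2, where the other drought libraries had none, and this rests on 3 counts. The 10 most abundant loci took 9.68% of all counts in DTY-IL drought replicate 4, against 5.77% to 6.18% in the other drought libraries.

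The drought effect differed between DTY-IL and Swarna for 19 loci by the interaction test of edgeR with Benjamini-Hochberg adjustment, a count that changed with the processing.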

How the results depend on the processing

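Counts of upregulated and downregulated DEGs stayed within 1.5 times of 2515 and 4145 with RLE factors, library totals, filterByExpr, no filter, DESeq2 and the DTY-IL libraries alone. They did not with all 16 libraries (1520 and 1358) or with glmTreat (720 and 790). Leaving out 1 library gave 1960 to 2712 upregulated and 2886 to 4546 downregulated DEGs. The count of interactions, 19, was 525 with DESeq2, 3 with glmTreat, 0 with all 16 libraries (edgeR), and 2 to 26 when 1 library was left out. With all 16 libraries the added Swarna library also enters the shared estimate of the spread; the cause of the other changes was not tested. Among the loci named, LOC_Os07g22770, which did not pass the test, changed sign without DTY-IL drought replicate 2 (-0.30) and ranged up to 0.60 when other libraries were left out. DESeq2 gave no adjusted p for LOC_Os04g48400. No paired analysis was possible because the count columns are numbered 1 to 4 and carry no pot number, while the labels number the pots otherwise. The fit recovered 34% of simulated 2-fold changes in loci with a mean of at least 50 normalized counts. Few loci were changed in that simulation, so adjustment was stricter there than in the data, and 34% may understate recovery. A locus that did not pass may still have changed. Depth limits loci with few counts further, and recovery among them was not simulated.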
